A study of Oryza sativa Indica Group with 5 samples.

Results

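Transcripts of 9 MADS-box genes of flower and seed were measured in developing rice seed (Oryza sativa, Indica group). The set was chosen by locus: MADS1, MADS3, MADS6, MADS7, MADS13, MADS14, MADS15, MADS29 and MADS87. All 9 were on the array, with 14 of its 59676 probes, against 48857 loci in all. Untreated plants stood in a glasshouse with days of 29 °C and nights of 21 °C, and seed was sampled 16 days after flowering. Of the 5 single-colour Agilent arrays, 3 held accessions of haplotype 8 with high-amylose grain and 2 held accessions of haplotype 4 with waxy grain, which is very low in amylose. Each array is another accession, so the spread behind each p-value mixes genetic with technical differences, and no accession was measured again. The labels name whole developing seed and do not say whether the hull was removed.

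MADS-box proteins are transcription factors that bind DNA as dimers and join into larger complexes, in which the mix of members sets the identity of an organ. In the flower, class C and D members specify stamens, carpels and ovules, and class E members take part in all of these complexes. The AP1/FUL members act at the change from leaf-making to flower-making meristems. B-sister genes act in the ovule and in the maternal tissues of the seed, and type I genes are known from the young endosperm. Most are therefore studied in the flower, before the stage sampled here.

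The values below are log2 of the processed signal relative to the array's 75th percentile, so 0 is the signal at that percentile. High-amylose replicates 2 and 3 shared a scan date and were dimmer, with 75th percentiles of 108 and 88.8 against 183 on high-amylose replicate 1 and 203 and 212 for the waxy pair. On these 2 arrays, probes that were not well above background anywhere had medians of -4.91 and -4.85, against -5.54 to -5.78 on the other 3, so dim probes read higher there after scaling. Both waxy arrays shared a scan date that no high-amylose array had, so scan date cannot be told apart from the group. Endosperm markers were well above background on all 5 arrays at 12 of 12 loci, and embryo and aleurone markers at 7 of 7. The Waxy transcript (LOC_Os06g04200), which encodes the enzyme that makes amylose, was at 7.96 to 8.46 on the high-amylose arrays, at 8.21 on the array labelled waxy replicate 1 and at 3.70 on waxy replicate 2. Because the first of these waxy arrays did not stand apart at Waxy, the difference of each tested gene is also given without it.

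Most of these floral genes gave a clear signal in seed. Of the 14 probes, 10 were well above background on all 5 arrays, and they covered 7 of the 9 genes. MADS14 was well above background on 2 high-amylose arrays only. MADS87 was well above background on no array. MADS1 and MADS14 were higher on every high-amylose array than on either waxy array. MADS1 differed by 2.06 on the log2 scale. MADS14, with no waxy array well above background, has only a bound of 3.9-fold, which leaves out the spread between arrays. At MADS3, MADS6, MADS7, MADS13, MADS15 and MADS29 the groups overlapped at the probe that represents the gene. None of the 8 genes tested passed a Benjamini-Hochberg adjusted p of 0.05 in limma over all 28945 tested loci, of which 8 (0.0276%) passed. At an unadjusted p under 0.05 were 2 of the 8, against 3.40% of all tested loci, or 1.63% counting only those higher in high-amylose seed. The groups did not overlap at the same 2 genes, against 13.5% of all tested loci, or 8.52% in that direction, and MADS14 entered the test only through the group in which it was high. In whole seed, fewer cells of a type and less RNA per cell cannot be told apart.

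**Figure D1:**
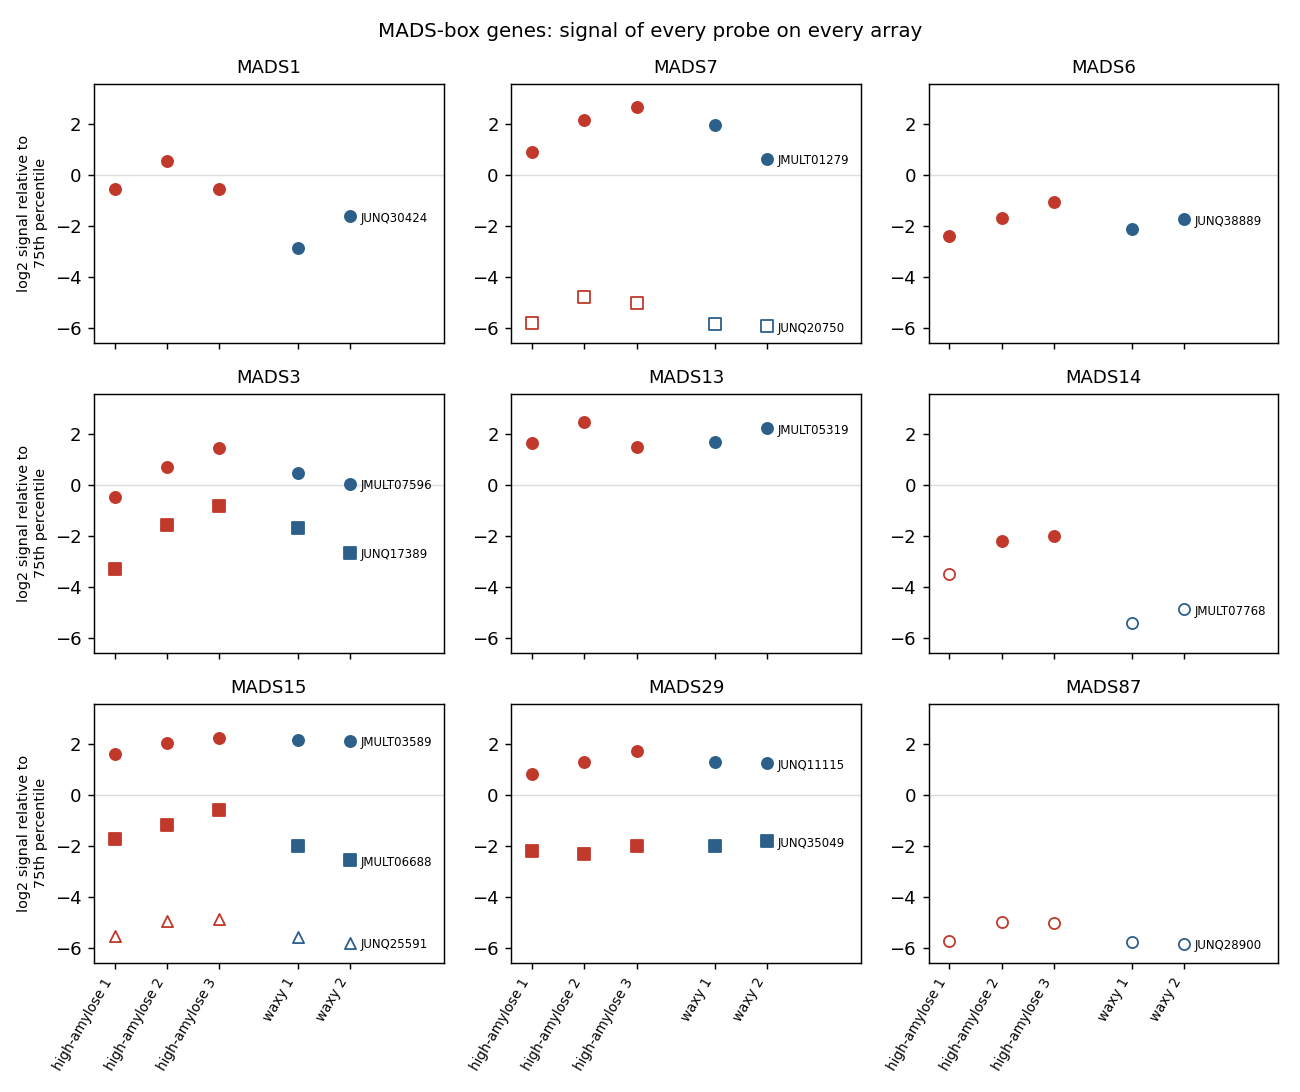
Log2 signal relative to the array's 75th percentile (vertical axis) for each probe of the 9 genes on each of the 5 arrays (horizontal axis), red for high-amylose and blue for waxy seed. Filled symbols are well above background and open ones are not, and the shape tells probes of a gene apart. At MADS1 and MADS14 the red points lie above the blue ones, and at the filled probes of MADS7, MADS6, MADS3 and MADS13 they overlap.

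Class E genes were represented by MADS1 and MADS7. MADS1 (LOC_Os03g11614, chromosome 3), known as leafy hull sterile1, specifies the lemma and palea that become the hull and sets the fate of the floral meristem. Its log2 signal was -0.55, 0.56 and -0.53 in high-amylose seed and -2.85 and -1.61 in waxy seed, each group in the order of its replicate numbers. All 3 high-amylose arrays lay above both waxy arrays, and the waxy arrays lay 2.36-fold apart. The mean difference was 2.06 (SE 0.54, 95% interval 0.84 to 3.29), or 4.2-fold. This missed the threshold (limma with Benjamini-Hochberg, adjusted p = 0.836, unadjusted p = 0.00398), and 137 loci had a p this small or smaller. An exact two-sided permutation test gave p = 0.1, the smallest that 10 splits of 5 arrays allow.

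The processed signal of MADS1 before scaling was 126, 159.8 and 61.4 in high-amylose seed and 28.1 and 69.1 in waxy seed. On that scale high-amylose replicate 3 fell below waxy replicate 2, so the separation of the groups rests on correcting for the dimmer array. Quantile scaling in place of the 75th percentile gave 2.06 again, with no overlap. Under a normexp background correction, which adds an offset of 50 and so shrinks differences between dim signals, the value was 1.02, still without overlap. Leaving out waxy replicate 1 gave a MADS1 difference of 1.44, and leaving out waxy replicate 2 gave 2.68. With 1 waxy array left, these fits hold no spread between waxy accessions. High-amylose replicate 1, which shared no scan date with replicates 2 and 3, was 1.69 above the waxy mean on its own.

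MADS7 (LOC_Os08g41950, chromosome 8), also called MADS45, acts with other class E genes in the inner floral organs. Its detected probe, designed to transcript model 2, gave 0.91, 2.17 and 2.70 in high-amylose seed and 1.99 and 0.63 in waxy seed. Both groups spread widely, 3.46-fold among the high-amylose arrays and 2.55-fold between the waxy arrays, and they overlapped. The difference of 0.61 (SE 0.62, 95% interval -0.78 to 2.01) did not pass (limma adjusted p = 1.00). It was 1.29 without waxy replicate 1 and -0.06 without waxy replicate 2, so the array left out set its size. The second MADS7 probe, for transcript model 1, was well above background on no array, at -5.81 to -4.80 in high-amylose and -5.95 to -5.87 in waxy seed.

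MADS6 (LOC_Os02g45770, chromosome 2), of the AGL6 type, specifies palea and inner floral organs and is expressed in endosperm, where it is known for a part in grain filling. It gave -2.40, -1.68 and -1.06 in high-amylose seed and -2.12 and -1.75 in waxy seed, so the waxy values lay within the high-amylose range. The difference was 0.22 (SE 0.49, 95% interval -0.89 to 1.32), which did not pass (limma adjusted p = 1.00). It is the 1 gene of the set with a probe printed in 2 spots, which differed by 0.14 to 0.49 on the log2 scale within an array. Without waxy replicate 1 the MADS6 difference was 0.032.

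MADS3 (LOC_Os01g10504, chromosome 1), of class C, specifies stamens. The probe with the higher signal gave -0.46, 0.70 and 1.45 in high-amylose seed and 0.47 and 0.06 in waxy seed. The second gave -3.32, -1.58 and -0.82, against -1.67 and -2.66. At both probes high-amylose replicate 1 was the lowest of the 5 arrays and high-amylose replicate 3 the highest, a spread of 3.76-fold and 5.64-fold, with the waxy arrays in between. The group differences were 0.30 (SE 0.58) and 0.26 (SE 0.71), and neither passed over the 35634 tested probes (limma adjusted p = 1.00 for both). Without waxy replicate 1 they were 0.50 and 0.75.

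MADS13 (LOC_Os12g10540, chromosome 12), of class D, specifies ovule identity and is expressed in the ovule and later seed coat. It gave 1.67, 2.49 and 1.50 in high-amylose seed and 1.69 and 2.24 in waxy seed, and the waxy values again lay inside the high-amylose range. The difference was -0.07 (SE 0.47, 95% interval -1.12 to 0.98), and it did not pass (limma adjusted p = 1.00). Without waxy replicate 1 it was -0.35. High-amylose replicate 2 was the highest array for MADS13, as for MADS1.

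The AP1/FUL type was represented by MADS14 and MADS15, which specify the inflorescence meristem together and respond to the flowering signal. MADS14 (LOC_Os03g54160, chromosome 3) gave -3.50, -2.22 and -1.98 in high-amylose seed and -5.43 and -4.89 in waxy seed. High-amylose replicates 2 and 3 were well above background. Replicate 1 and both waxy arrays were not, although all 5 spots were scored as positive and significant against background. Here the unscaled signals did not overlap either, at 16.2, 23.25 and 22.4 against 4.70 and 7.13.

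The bound for MADS14 was 3.9-fold higher in high-amylose seed, taking for each waxy array the lowest signal well above background. For the high-amylose arrays it takes their own signals, that of replicate 1 included, which was not well above background itself. This bound is not a minimum, since it leaves out the spread between arrays. On replicate 1 the lowest signal well above background was -4.31, under the -3.50 of MADS14, so that signal is no strict limit of detection. The fitted difference was 2.59 (SE 0.54, 95% interval 1.39 to 3.80). This missed the threshold (limma with Benjamini-Hochberg, adjusted p = 0.452, unadjusted p = 0.000816), and 52 loci had a p this small or smaller. The exact permutation p was again 0.1, the smallest possible. Leaving out waxy replicate 1 gave 2.33, and leaving out waxy replicate 2 gave 2.86, in fits that hold no spread between waxy accessions. High-amylose replicate 1 alone was 1.66 above the waxy mean, and replicates 2 and 3 were 3.06 above it. Under normexp the MADS14 difference shrank to 0.48, and the groups still did not overlap.

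MADS15 (LOC_Os07g01820, chromosome 7) had 3 probes, and they did not give 1 answer. The probe for transcript model 2 gave 1.62, 2.04 and 2.27 in high-amylose seed and 2.19 and 2.14 in waxy seed, a difference of -0.19 (SE 0.42, limma adjusted p = 1.00). The probe for transcript model 6 gave -1.72, -1.17 and -0.56 in high-amylose seed and -2.0 and -2.57 in waxy seed. The groups overlapped at the first and not at the second, where the difference was 1.13 (SE 0.48, 95% interval 0.04 to 2.23) with an unadjusted limma p of 0.0434, and it did not pass over all probes (limma adjusted p = 1.00). Without scaling between arrays this second probe overlapped as well. Leaving out waxy replicate 1 gave -0.16 at the model 2 probe and 1.42 at the model 6 probe. The third probe, for transcript model 1, was well above background on no array.

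Within each array, the MADS15 model 6 probe was below the model 2 probe by a margin given here for both groups. The log2 difference of the 2 probes was -3.34, -3.21 and -2.84 in high-amylose seed and -4.19 and -4.71 in waxy seed. This contrast needs no scaling between arrays, and its groups did not overlap. The shift of 1.32 had an exact two-sided permutation p of 0.1, the smallest possible, and 0.3 after adjustment over the 3 genes with 2 tested probes. The same contrast at MADS3 and MADS29 shifted by -0.04 (exact p = 1) and -0.28 (exact p = 0.5). What each MADS15 probe binds in these accessions was not tested.

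MADS29 (LOC_Os02g07430, chromosome 2) is the B-sister gene known for the breakdown of the nucellus and for seed filling. The probe with the higher signal gave 0.82, 1.32 and 1.76 in high-amylose seed and 1.33 and 1.26 in waxy seed. The waxy arrays were 1.05-fold apart and lay within the high-amylose values. The difference was 0.00 (SE 0.44, 95% interval -0.99 to 1.00), which did not pass (limma adjusted p = 1.00), and without waxy replicate 1 it was 0.036.

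The second MADS29 probe gave -2.20, -2.32 and -2.0, against -1.99 and -1.81. Both waxy arrays were above all high-amylose arrays there by a small margin, and the difference of -0.27 (SE 0.41) did not pass (limma adjusted p = 1.00). This order was lost under quantile scaling, under normexp and in the deposited log2 values. Over all 11 tested probes of the set, 4 had groups that did not overlap, against 13.6% of all tested probes, and 0 passed, against 0.0196%. The 4 were the probes of MADS1 and MADS14, the MADS15 probe for transcript model 6 and, in the other direction, the second MADS29 probe. An unadjusted p under 0.05 was reached by 3 of the 11, against 3.30%. The MADS14 probe is in both counts and entered the test only through the high-amylose arrays, and probes of the same gene are not independent.

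MADS87 (LOC_Os03g38610, chromosome 3) is a type I gene known from endosperm before it forms cell walls and from heat-sensitive grain size. It gave -5.75, -4.98 and -5.02 in high-amylose seed and -5.78 and -5.85 in waxy seed. No spot was well above background, and none was scored as positive and significant. The 2 higher values are those of the 2 dimmer arrays, where dim probes in general read higher. No difference between groups can be read from MADS87 at this signal.

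**Figure D2:**
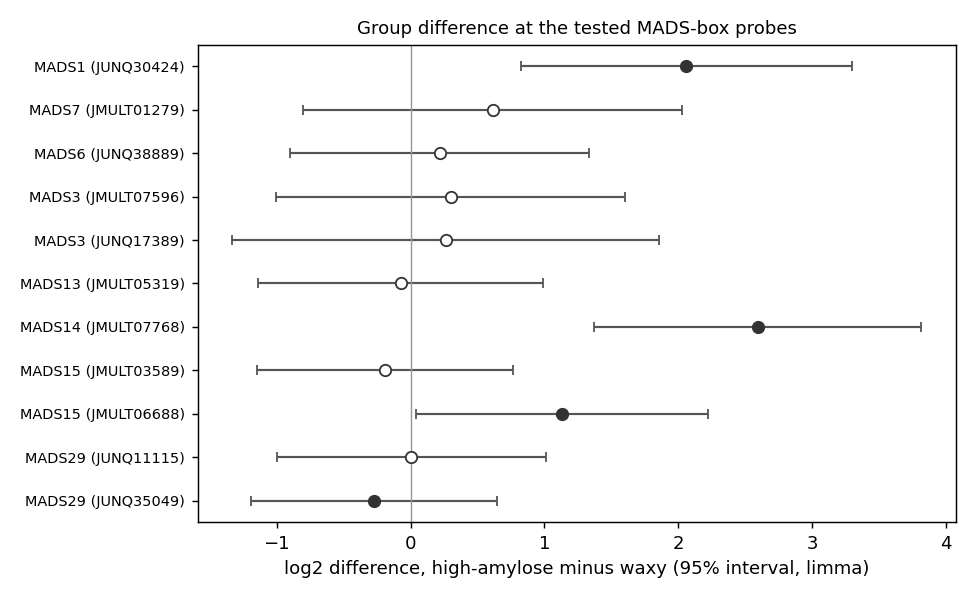
Log2 difference, high-amylose minus waxy (horizontal axis), with its 95% interval from limma for the 11 tested probes of 8 genes (vertical axis). Filled points mark probes whose groups did not overlap. The intervals of MADS1, MADS14 and the second MADS15 probe lie above 0, before adjustment for the number of probes, and the other 8 include 0.

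Genes listed as markers of the outer seed tissues had medians on the same side as MADS1 and MADS14. Since each array is another accession, a difference between accessions in these genes themselves cannot be told apart from the amount of tissue. On high-amylose replicate 1 the photosynthesis list lay within the waxy range. Photosynthesis genes of the green outer layers had a positive difference at 8 of 8 tested loci, against 15603 of all 28945. Their median was 1.97, but the groups overlapped at 7 of the 8 loci and 0 passed. At 2 of the 8, an LHCB and an LHCA gene, no waxy array was well above background, so they were tested only through the high-amylose arrays. Around each locus's mean, the list's median stood at -1.17, 1.08 and 2.47 in high-amylose seed and at -1.44 and -0.78 in waxy seed. For seed coat flavonoid genes this was so at 4 of 4 loci (median 2.28), and 1 of them, dihydroflavonol 4-reductase, passed. Of these 4, dihydroflavonol 4-reductase and Rc were well above background on no waxy array, so they too were tested only through the high-amylose arrays, and the groups overlapped at Rc and at chalcone synthase. The list's median deviation was -0.77, 0.86 and 3.03, against -1.41 and -1.39. Their summed log2 level was 0.99 to 4.09 in high-amylose and -0.52 to -0.19 in waxy seed, and that of the photosynthesis genes was 0.50 to 4.03 and 0.49 to 0.99.

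MADS1 did not follow the order of these lists among the high-amylose arrays. It was highest on replicate 2, whereas both lists were highest on replicate 3, and it was alike on replicates 1 and 3. At the representing probes of MADS14, MADS3, MADS6, MADS7, MADS15 and MADS29, replicate 3 was the highest and replicate 1 the lowest high-amylose array, as for both lists. The median over all tested loci had the same order, with deviations of -0.11, 0.06 and 0.10, and so had that over the other tested MADS-box loci, at -0.37, 0.20 and 0.34. The second MADS29 probe was lowest on replicate 2. Flower organ markers were tested at 4 of 5 loci, with a median difference of 0.29, and their summed log2 level was 0.32 to 0.58 in high-amylose and -0.19 to -0.08 in waxy seed. At each of the 4 loci, MADS2, MADS4, MADS16 and MADS58, the groups overlapped, 3 were higher and 1 lower in high-amylose seed, and none passed. These 4 are MADS-box loci themselves and belong to the family list below, so they are no separate measure of tissue. The fifth marker, DL, the carpel gene drooping leaf, was well above background on no array. Endosperm markers had a median difference of 0.05, with 6 of 12 loci higher and 6 lower in high-amylose seed, and none passed. The groups did not overlap at NF-YB1 (1.12), alpha-globulin (0.46) and AGPS2 (-0.72), and over all tested loci they did not at 13.5%. The summed log2 level of the 12 endosperm markers was 12.30 to 12.44 in high-amylose and 12.09 to 12.17 in waxy seed. That sum rests largely on alpha-globulin, whose log2 signal was 11.31, 11.69 and 11.80 against 11.30 and 10.97. Embryo and aleurone markers had a median of 0.06 and sums of 9.59 to 10.75 and 9.67 to 10.20. Of these 7, 5 were higher and 2 lower in high-amylose seed, and none passed. The groups did not overlap at 1-Cys peroxiredoxin (0.54) alone. The part of any of these tissues in the MADS1 and MADS14 differences was not tested.

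**Figure D3:**
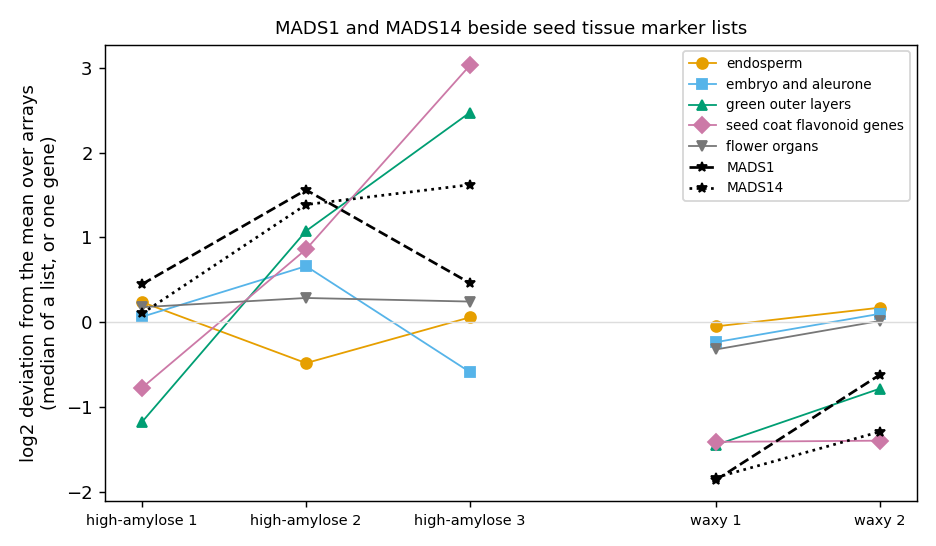
Log2 deviation from the mean over the 5 arrays (vertical axis) on each array (horizontal axis), for MADS1, MADS14 and the median member of 5 marker lists. Lines join the points of a list or gene within a group and imply no order. The green outer layer and flavonoid lists are highest on high-amylose replicate 3, at 2.47 and 3.03, and MADS1 is highest on replicate 2.

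The rest of the family was read from a list of 35 further MADS-box loci. All were on the array, 22 were well above background on every array, 6 on none, and 25 were tested. None passed (limma with Benjamini-Hochberg). In high-amylose seed 16 were higher and 9 lower, against 15603 higher and 13342 lower of all 28945 tested loci. The median log2 difference was 0.19, against 0.03 over all tested loci and 0.26 over the 8 tested members of the set. The median size of the difference was 0.21, against 0.26 over all tested loci. The B-sister relatives of MADS29, MADS30 (LOC_Os06g45650) and the locus LOC_Os04g52410, were well above background on no array.

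MADS47 (LOC_Os03g08754), of the SVP type, which acts in brassinosteroid responses, had an unadjusted p under 0.05 among the 25, and it was well above background in waxy seed only. It gave -4.40, -5.06 and -4.99 in high-amylose seed, all below the limit of well above background, and -3.23 and -2.46 in waxy seed. The waxy arrays were above all high-amylose arrays, with a bound of 1.86-fold that leaves out the spread between arrays. The fitted difference was -1.98 (SE 0.45), with an unadjusted limma p of 0.00165, and it did not pass (limma adjusted p = 0.583). It ran opposite to MADS1 and MADS14, and like MADS14 it entered the test through the group in which it was high. Its SVP-type relatives MADS22 (LOC_Os02g52340) and MADS55 (LOC_Os06g11330) were at -0.06 (SE 0.43) and -0.10 (SE 0.43).

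The other locus among the 25 with an unadjusted p under 0.05 was MADS17 (LOC_Os04g49150), the AGL6-type relative of MADS6. MADS17 gave -3.31, -1.71 and -2.03 in high-amylose seed and -3.18 and -4.10 in waxy seed. High-amylose replicate 1 fell below waxy replicate 1, so the groups overlapped. The difference of 1.29 (SE 0.57) did not pass (limma adjusted p = 1.00). MADS58 (LOC_Os05g11414), the class C relative of MADS3, was at 0.90 (SE 0.55). MADS18 (LOC_Os07g41370), of the AP1/FUL type, was at 0.82 (SE 0.43), with -2.90, -2.39 and -2.09 against -3.25 and -3.30 and thus no overlap. Before scaling, its signals were 24.5, 20.7 and 20.9 against 21.4 and 21.5, which did overlap. The scaled groups did not overlap at 3 of the 25 loci, against 13.5% of all tested loci. MADS23 (LOC_Os08g33488), of the ANR1 type known from roots, was at 0.71 (SE 0.50). None of these 3 passed (limma adjusted p = 1.00 for each).

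At the 8 loci of the list named for their mean signal, differences ran from -0.10 at MADS55 to 0.19 (SE 0.49) at LOC_Os08g41960. MADS34 (LOC_Os03g54170), a class E gene of the inflorescence, was at -0.05 (SE 0.44), with 3.68, 4.36 and 3.62 in high-amylose and 3.76 and 4.12 in waxy seed. MADS27 (LOC_Os02g36924), a root regulator, was at -0.05 (SE 0.42). The loci LOC_Os09g02830, LOC_Os08g38590 and LOC_Os09g02780 were at -0.05 (SE 0.46), 0.04 (SE 0.43) and -0.08 (SE 0.46). At all 8 of these loci the groups overlapped. Outside the naming rule, and chosen after its values were seen, LOC_Os06g23950 was well above background on high-amylose replicate 2 alone, at 0.44, against -5.87 and -5.04 on the other high-amylose arrays and -4.18 and -6.03 in waxy seed, and it was not tested.

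**Figure D4:**
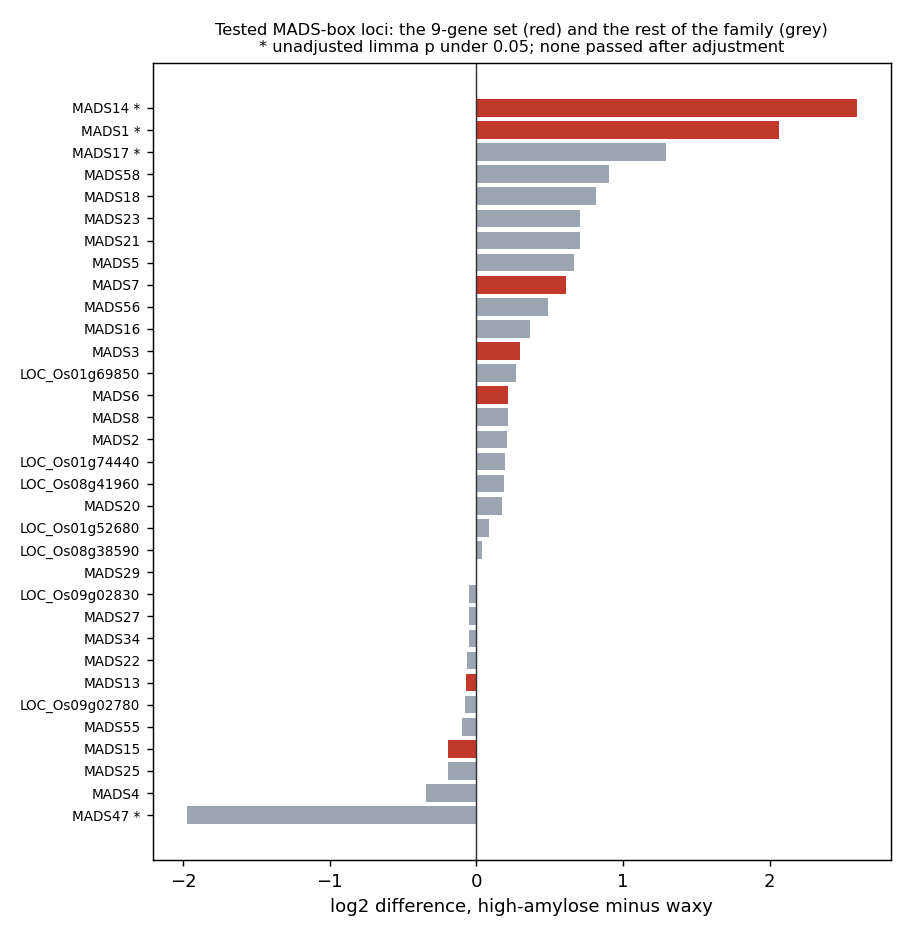
Log2 difference, high-amylose minus waxy (horizontal axis), for the 33 tested MADS-box loci (vertical axis), in red for 8 genes of the set and grey for 25 others. Asterisks mark an unadjusted limma p under 0.05, and none passed after adjustment. MADS14 at 2.59 and MADS1 at 2.06 lie at the upper end and MADS47 at -1.98 at the lower end. At MADS14 and MADS47 these are fitted values, since 1 group was not well above background.

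Pairs of close relatives were set side by side after their values had been seen. MADS8 (LOC_Os09g32948), the class E partner of MADS7, gave 0.40, 1.21 and 1.74 in high-amylose seed and 1.38 and 0.42 in waxy seed. Like MADS7, it was high on high-amylose replicate 3 and low on high-amylose replicate 1 and waxy replicate 2. After each locus was centred on its mean, MADS7 and MADS8 differed by a root mean square of 0.28 over the 5 arrays, and 0.218% of the 28944 other loci were nearer to MADS7. LOC_Os08g41960, beside MADS7 on chromosome 8, had a root mean square of 0.47 from it, with 3.62% of loci nearer. MADS58 lay 0.36 from MADS3, with 9.69% of loci nearer.

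MADS20 (LOC_Os12g31748) lay 0.24 from MADS15, both of the AP1/FUL type, with 15.7% of loci nearer. MADS18, of the same type, lay 0.495 from MADS15, with 57.8% nearer. MADS21 (LOC_Os01g66290), of class D, gave -1.41, -0.41 and 0.42 in high-amylose seed and -1.02 and -1.32 in waxy seed, and 83.2% of loci were nearer to MADS13 than it was. MADS17 stood 0.75 from MADS6, with 69% of loci nearer. MADS15 stood 1.41 from MADS14, with 55.6% nearer, and MADS18 stood 0.93 from it, with 2.29% nearer. MADS20 stood 1.21 from MADS14, with 21.1% nearer. MADS5 (LOC_Os06g06750), a class E relative of MADS1, was at 0.67 (SE 0.51) and stood 0.98 from it, with 10.6% nearer. MADS34, also of class E, stood 1.08 from MADS1, with 28.6% nearer. These distances describe 5 arrays and carry no test.

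**Figure D5:**
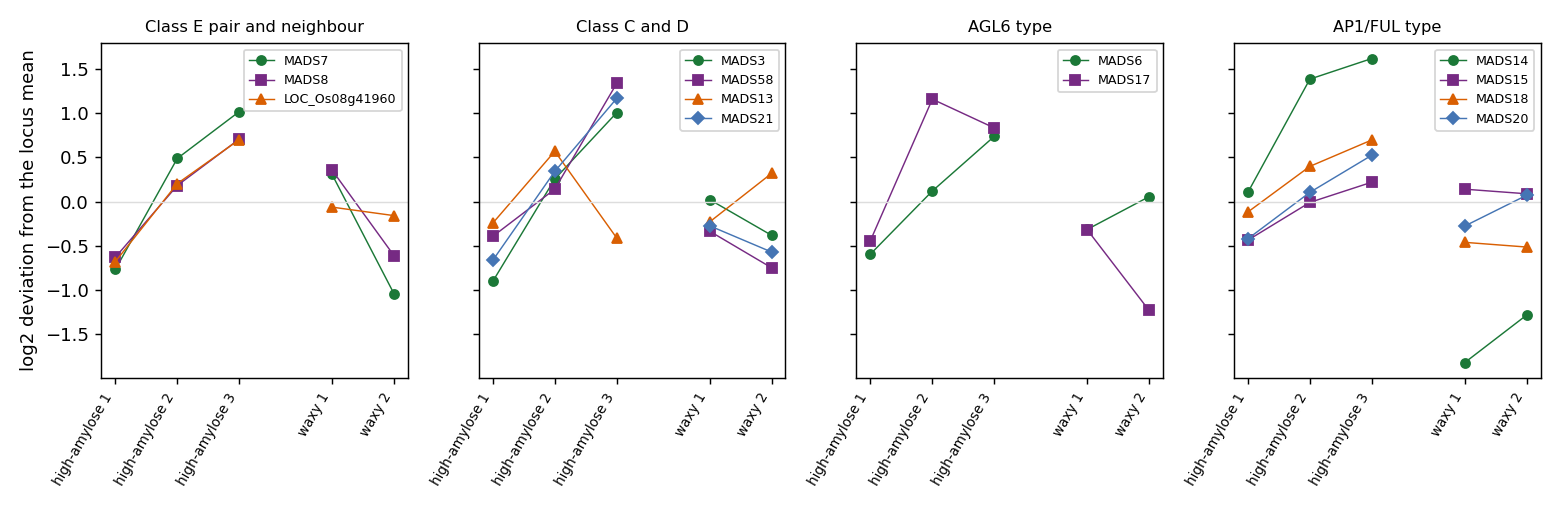
Log2 deviation from the locus mean (vertical axis) on each of the 5 arrays (horizontal axis), for genes of the set and their relatives in 4 panels. Lines join the points of a locus within a group and imply no order. MADS7 and MADS8 follow each other, MADS13 departs from MADS21, and MADS14 has the widest range among the AP1/FUL loci.

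The locus whose centred profile was nearest to each gene was found among all tested loci, for the 7 genes well above background on every array. MADS1 had no locus within a root mean square of 0.2, and the nearest was LOC_Os11g41700 at 0.23. MADS7 had 10 loci within 0.2, the nearest being LOC_Os09g25770 at 0.10. MADS3 had 161, the nearest being LOC_Os01g52650 at 0.05. MADS13, MADS6, MADS15 and MADS29 had 1702, 2184, 2923 and 4312 loci within 0.2, so the nearest says little. These were LOC_Os01g65400, LOC_Os07g05460, LOC_Os02g51570 and LOC_Os03g01280, each at 0.02. Among MADS-box loci, the nearest to MADS1 was MADS14 at 0.62, with 155 other loci nearer, and MADS14 was not well above background on 3 of the 5 arrays. MADS56 (LOC_Os10g39130), of the SOC1 type, was nearest to both MADS3 at 0.13 and MADS7 at 0.24. MADS20 at 0.13 was nearest to MADS6, MADS34 at 0.10 to MADS13, MADS25 at 0.11 to MADS15 and LOC_Os09g02780 at 0.11 to MADS29.

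The loci beside MADS1 and MADS14 on chromosome 3 were read in the order of locus names, 3 on each side. Beside MADS1, DL (LOC_Os03g11600) was well above background on no array. The 3 tested neighbours of MADS1 differed by 0.27 to 0.58 and did not pass (limma adjusted p = 1.00). The 4 tested neighbours of MADS14 differed by -0.72 to 0.14, with MADS34 among them, and did not pass (limma adjusted p = 1.00).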

How the data were processed

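The deposited scanner files give an intensity per spot. Per the file headers they come from Agilent Feature Extraction 11.5.1.1, with background subtracted and spatial trends removed on each array and no scaling between arrays. A table of log2 values deposited by the authors served as an alternative. The submitters' processing notes name limma, without saying how the table was normalized. Differences between its columns followed quantile-normalized log2 processed intensity (r of 0.9996 to 0.9997, slopes of 0.989 to 0.992, over 10 pairs of arrays). The columns had medians of -0.0173, 0.0392 and 0.0273 (high-amylose) and -0.0228 and 0.00403 (waxy). The baseline subtracted per probe stays unknown. The deposited 0 or 1 flags for well above background and for outliers were used as given, per the file headers.

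Outlier spots were dropped and the remaining spots of each probe averaged, on the log2 scale and relative to the array's 75th percentile. No spot was saturated, and no spot of the 9 genes was an outlier. A probe was tested if at least 0.5 of its spots were well above background on at least 2 arrays (35634 probes), and a locus was represented by its tested probe with the highest mean (28945 loci). The comparison used limma (version 3.58.1, R 4.3.3), with lmFit and eBayes on all 5 arrays without covariates, two-sided, and Benjamini-Hochberg adjustment over all loci or all probes at a threshold of 0.05. The fit was also run on simulated data with known differences, and the share of these that it recovered is not given here. Other tools were data.table (version 1.17.8) and jsonlite 2.0.0, with figures from matplotlib 3.10.9 and pandas 2.3.3 under Python 3.11.15. Precision is limited by the number of arrays, and the median SE over the 8 tested genes was 0.51, against 0.46 over all loci. Replicates were numbered in deposit order, which pairs nothing.

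A bound for a group that is not well above background takes on each array the lowest signal that was well above background, or the probe's own where that was higher. The genes, the family list, the marker lists and the naming rule were chosen with earlier results of these data known. All probes of the 9 genes are named. Of the other MADS-box loci, the rule names the 8 with the highest mean signal, the 5 with the largest difference and those with an unadjusted p under 0.05, and further ones were named as relatives, nearest profiles or neighbours. The files give locus names of the MSU annotation only. The RefSeq table lists 8 of the 9 gene names of the set and 23 of the 35 others, each on the chromosome of its locus name, and the other 12 loci are given without a name. Probe classes named JUNQ (8 of the 14) and JMULT (6) are not defined in the sources used here. JMULT probes represent MADS3, MADS7, MADS13, MADS14 and MADS15. The JUNQ probes of MADS7 and MADS15 were well above background on no array, and that of MADS3 was on all 5. Whether a probe binds transcripts of other genes was not tested. Sequences of probes, promoters and proteins were not used here. The array grid names the build IRGSP5, per the file headers, and no coordinates were used.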

Additional observations from a re-analysis of the deposited data

How the results depend on the processing

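None of the 9 genes, of their probes or of the other 35 MADS-box loci passed in limma under any of the 13 alternatives (12 for probes), while the count of all loci that passed ranged from 0 to 179. At an unadjusted limma p under 0.05, 1 or 2 of the 7 to 9 genes tested were found under each alternative. Among all tested loci the count ran from 642 of 28945, with scan date as a random block, to 3711 of 28945, without high-amylose replicate 1. In that last fit 2 of 8 genes of the set and 7 of 25 other MADS-box loci were found. Leaving out 1 array gave 0 genes of the set, 0 other MADS-box loci and 0 probes each time. MADS1 was higher in high-amylose seed under every alternative (1.02 to 2.68, limma adjusted p = 0.0619 to 1.00), the smallest p being that with the filter on all 5 arrays. MADS14 was higher in all 12 that could test it (0.48 to 3.06). The second MADS15 probe was higher in all 12 (0.53 to 1.42). Signs turned only for genes whose groups overlapped. MADS29 was at -0.044 under quantile scaling, -0.031 under normexp, -0.042 in the deposited log2 values, -0.13 as a mean of its probes and -0.023 with scan date as a random block (-0.0215 for its probe), and MADS15 was at 0.47 as a mean of its probes. With high-amylose replicates 2 and 3 left out, MADS29 was at -0.47, MADS3 at -0.72 and, for its second probe, -1.15, MADS6 at -0.47 and MADS7 at -0.40. Leaving out 1 array gave -0.14 to 0.81 at MADS3, -0.28 to 0.97 at its second probe, -0.11 to 0.56 at MADS6, -0.062 to 1.29 at MADS7, -0.37 to 0.20 at MADS13 and -0.23 to 0.24 at MADS29. The cause of these turns was not tested. The median over all loci moved from 0.03 to 0.21 with no filter on dim probes and to 0.13 without high-amylose replicate 1. Normexp was planned on mean signals and was run on median signals, a choice made after seeing the data, since the files as given hold medians. A fit without 1 waxy array holds no spread between waxy accessions. No paired analysis was possible because each array is another accession and the design holds no pairs. Dim probes limit MADS87 and the first-model probes of MADS7 and MADS15.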
